A study of Mus musculus with 28 samples.

Results

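The genes of the BCL2 family set whether a stressed cell lives or dies, and 10 of them were followed here through 6 treatments of a mouse tumor. They were the rows named Bcl2, Bcl2l1, Bcl2l2, Mcl1, Bcl2a1b, Bak1, Bcl2l11, Bid, Bad and Bik, 10 of the 55341 rows of each count matrix. Each was found in both matrices, and each of the 10 passed the filter on low counts. The rule takes rows by gene name alone, but the genes were picked with earlier results of these data known.

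RNA was sequenced from whole tumors of female BALB/c.AusBP mice, 8 to 10 weeks old, that carried the AB1-HA mesothelioma line under the skin of the flank. AB1-HA is a cultured line of mesothelioma, a cancer of the lining of the chest and belly, that also carries an influenza hemagglutinin gene, so every tumor grew from 1 cell line. All tumors were taken at day 7 of treatment, each from a different mouse. The control group received PBS (n = 4). The ICB group (immune checkpoint blockade, n = 5) received 100 μg of antibody to CTLA-4 and 100 μg of antibody to PD-L1, then 2 more doses of the PD-L1 antibody. The 5-FU group (n = 5) received 75 mg/kg of 5-fluorouracil, and the cisplatin group (n = 4) received 6 mg/kg of cisplatin. The 5-FU+ICB and cisplatin+ICB groups (n = 5 each) received the drug at the same dose with the antibodies.

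Proteins of this family meet on the mitochondrial outer membrane. The anti-apoptotic members (BCL2, BCL-XL from Bcl2l1, BCL-W from Bcl2l2, MCL1 and A1 from the Bcl2a1 genes) hold the effectors BAK and BAX in check. The BH3-only members (BIM from Bcl2l11, BID, BAD and BIK) either block the anti-apoptotic proteins or switch the effectors on, after which cytochrome c leaves the mitochondrion and caspases are activated. Lymphocytes and myeloid cells are known to depend on BCL2, MCL1, A1 and BIM for their survival and contraction, whereas tumor cells often lean on MCL1 or BCL-XL. Many of these proteins are controlled after translation, which RNA does not show.

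Total counts per tumor ran from 23502224 to 33894337, with a median of 28741478. Levels are given as CPM, counts relative to a library's size after scaling by the trimmed mean of M values. A gene is said to have risen or fallen where edgeR's quasi-likelihood test gave a Benjamini-Hochberg adjusted p under 0.05 over all genes tested together with a log2 fold change beyond 0.5. Some tumors stood apart. A length index was computed for each tumor as the Spearman correlation, across 18499 genes, of a gene's deviation from its mean level with its transcript length. It was -0.259 in PBS tumor 1, -0.423 in PBS tumor 2, -0.165 in cisplatin tumor 2, -0.372 in cisplatin tumor 4 and -0.470 in cisplatin+ICB tumor 1, against -0.044 to 0.279 in the other 23 tumors. In those 5 tumors short transcripts were thus relatively high and long ones low. Msln, which encodes the mesothelial marker mesothelin, was at 34.5 to 655 CPM in 27 tumors and at 0.501 CPM in 5-FU+ICB tumor 5. Of the other mesothelial markers, Upk3b was at or below 0.0672 CPM throughout and Wt1 at or below 2.79 CPM. The keratin genes Krt8, Krt18 and Krt19 were at 33.5, 27.2 and 49.0 CPM in 5-FU+ICB tumor 5 and at or below 9.35, 1.52 and 1.86 CPM in the others. Leaving that tumor out changed none of the calls given below for the 10 genes in 5-FU+ICB tumors.

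Per kilobase of merged exon, Mcl1 was the most abundant of the 10 genes, with a median over the 28 tumors of 104 CPM per kilobase. Bcl2a1b (55.6) and Bak1 (53.2) followed on the same scale, then Bcl2l1 (15.9), Bid (11.9), Bad (10.9), Bcl2l2 (8.71), Bcl2l11 (6.07) and Bcl2 (3.81). Bik was far below at 0.311 CPM per kilobase, on 4 to 38 counts a tumor. By group mean on this scale, Bak1 was above Bcl2a1b in PBS, 5-FU and cisplatin tumors and below it in the groups that received ICB. Bcl2a1b counts cannot be fully separated from those of its copies, as given below. Per kilobase of the longest transcript, Bad (18.1) was above Bid (17.5). The genes differed in how much they varied between tumors. The highest tumor exceeded the lowest by 15.9-fold for Bcl2l11, 15.6-fold for Bik, 10.9-fold for Bcl2a1b, 7.53-fold for Bad and 5.27-fold for Bcl2. For Bcl2l1, Bcl2l2, Mcl1, Bak1 and Bid the span was between 2.08-fold and 2.73-fold.

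**Figure D1:**
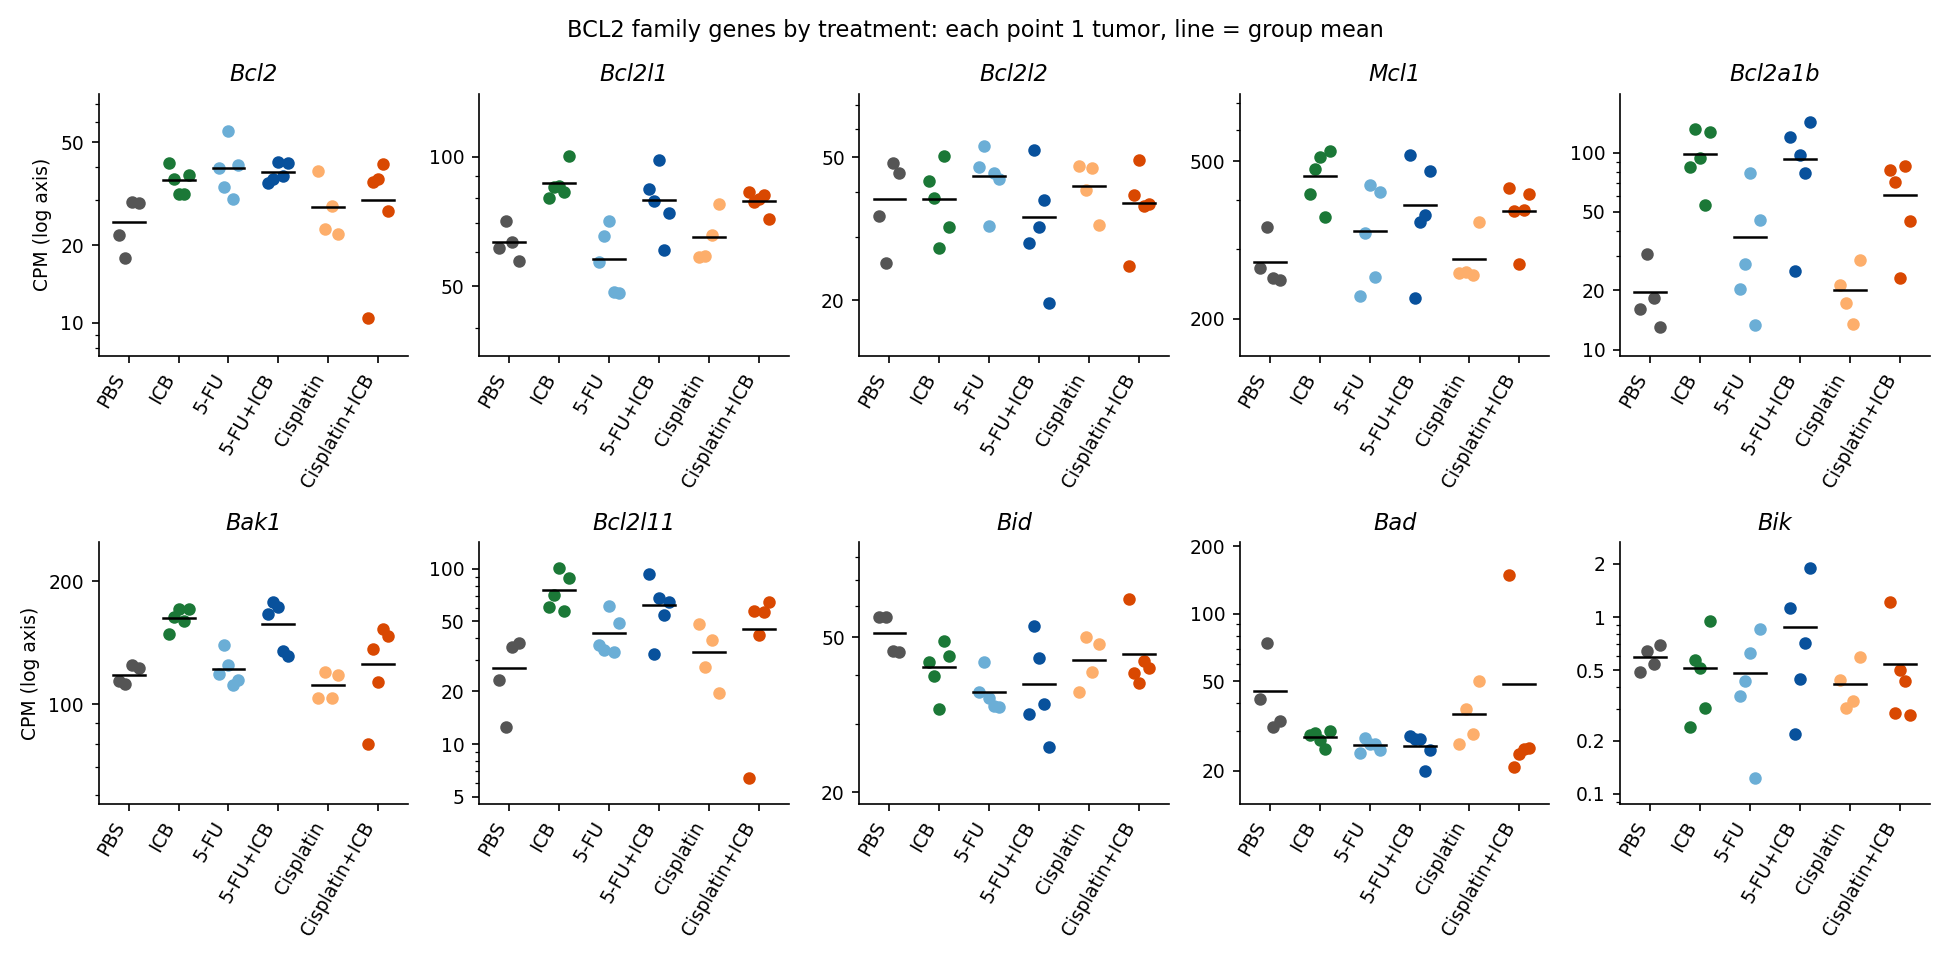
CPM of each of the 10 BCL2 family genes in each of the 28 tumors by treatment group (log axis, a different range in each panel; points are tumors, lines are group means). Bcl2a1b and Bcl2l11 lie higher in the 5 ICB tumors than in the 4 PBS tumors without overlap, and cisplatin+ICB tumor 1 is the high Bad point at 150 CPM and the low Bcl2l11 point at 6.37 CPM.

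The first comparison asked what checkpoint blockade alone did to these genes. Of the 10, Bcl2a1b, Bcl2l11, Mcl1 and Bcl2 rose in ICB against PBS tumors and Bad fell. The count of 5 of 10 has to be read against a background in which 37.8% of the 17894 genes tested were called in this comparison. The median log2 fold change was 0.48 over the 10 genes and -0.04 over all genes tested. For 7 of the 10 genes the ICB and PBS tumors did not overlap, as for 37.4% of all genes. The PBS and ICB tumors are the same in both matrices and serve several of the comparisons that follow.

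Bcl2a1b, a gene for the anti-apoptotic protein A1 of blood cells, had the largest change. It was at 16.0, 30.8, 18.2 and 13.1 CPM in PBS tumors 1 to 4. In the ICB tumors it was at 84.4, 132, 93.4, 54.3 and 127 CPM, so that every ICB tumor was above every PBS tumor. The log2 fold change was 2.34 ± 0.53 (SE, edgeR adjusted p = 0.00275), and it was called in 9 of 9 fits that left out 1 tumor. In the 5-FU+ICB tumors the levels were 120, 25.0, 96.8, 78.7 and 143 CPM. Tumor 2 of that group fell within the PBS range and the other 4 lay above it, with a log2 fold change from PBS of 2.26 ± 0.53 (edgeR adjusted p = 0.00339). In the cisplatin+ICB tumors Bcl2a1b was at 81.5, 70.6, 23.1, 85.4 and 45.0 CPM, with tumor 3 inside the PBS range, and it rose by 1.66 ± 0.38 (edgeR adjusted p = 0.0223). Without an antibody Bcl2a1b did not pass the test. The 5-FU tumors were at 20.3, 27.1, 79.2, 13.3 and 45.7 CPM of which 2 lay above the PBS range and 3 within it (0.93 ± 0.50, edgeR adjusted p = 0.174). The cisplatin tumors, at 21.2, 17.2, 13.5 and 28.4 CPM, lay inside the PBS range (0.05 ± 0.39, edgeR adjusted p = 1.00). By mean level the order was ICB (98.2 ± 32.1, SD), 5-FU+ICB (92.6 ± 44.8), cisplatin+ICB (61.1 ± 26.4), 5-FU (37.1 ± 26.4), cisplatin (20.1 ± 6.38) and PBS (19.5 ± 7.78), and neighbours in this order differed by less than the larger of their SDs.

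Mice carry several near-identical copies of this gene on chromosome 9, and 73.3% of the 31-base words of the Bcl2a1b transcript also occur in another Bcl2a1 copy. Its counts therefore cannot be fully separated from those of Bcl2a1a (79.6% shared) and Bcl2a1d (89.1% shared). It also shares exon bases on the same strand with the gene model Gm29094 (49.1% of its exon length). Bcl2a1a rose by 2.03 ± 0.49 in ICB against PBS tumors (edgeR adjusted p = 0.00372) and Bcl2a1d by 2.16 ± 0.56 (edgeR adjusted p = 0.00598), so the 3 copies are best read together. With 5-FU alone none of the 3 passed in the fit with all tumors. After the length correction Bcl2a1a (1.24, edgeR adjusted p = 0.0495) and Bcl2a1d (1.52, edgeR adjusted p = 0.0395) passed there and Bcl2a1b did not (1.28, edgeR adjusted p = 0.0559). The bases before the annotated starts of the copies are shown because their RNAs moved together and their upstream sequences are also close. They are from RefSeq (GRCm38.p6, 5′ to 3′ on the strand of each gene), cut where the GENCODE M21 gene begins. Capitals mark the motif GAGGAAGT, a form of the site bound by the blood-cell factor PU.1, which was picked after the sequences had been seen.
Bcl2a1b (chr9:89199023-89199208, plus strand): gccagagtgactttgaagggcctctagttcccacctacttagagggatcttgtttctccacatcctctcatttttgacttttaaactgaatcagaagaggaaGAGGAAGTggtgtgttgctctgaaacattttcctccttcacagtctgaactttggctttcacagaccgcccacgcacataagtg
Bcl2a1a (chr9:88956670-88956899, plus strand): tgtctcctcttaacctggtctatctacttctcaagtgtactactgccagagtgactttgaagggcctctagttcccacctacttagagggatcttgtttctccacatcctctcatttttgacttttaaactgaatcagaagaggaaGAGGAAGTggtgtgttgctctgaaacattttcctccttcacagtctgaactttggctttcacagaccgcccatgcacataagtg
Bcl2a1d (chr9:88731915-88732100, minus strand): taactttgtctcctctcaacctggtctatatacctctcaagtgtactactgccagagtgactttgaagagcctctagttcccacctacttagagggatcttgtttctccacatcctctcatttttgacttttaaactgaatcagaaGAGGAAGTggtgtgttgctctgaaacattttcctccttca

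The longest stretch that the Bcl2a1b sequence shares base for base was 174 bases with Bcl2a1a and 84 bases with Bcl2a1d. GAGGAAGT, on either strand, occurs once in each of the 3 sequences. It begins 84 bases before the annotated start of Bcl2a1b and of Bcl2a1a and 40 bases before that of Bcl2a1d. Among 32851 RefSeq windows of 300 bases around mouse gene starts, 3.2% held it on either strand, including windows of Bad and Bak1 among the 10 genes. These are matches of letters, not measured binding.

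Mcl1, which encodes a short-lived anti-apoptotic protein, was at 268, 341, 253 and 251 CPM in the PBS tumors. In the ICB tumors it was at 414, 478, 511, 362 and 530 CPM, all above the PBS tumors, and it rose by 0.74 ± 0.25 on the log2 scale (edgeR adjusted p = 0.0233). The call was lost when PBS tumor 1, 3 or 4 was left out (adjusted p = 0.0547, 0.0621 and 0.0613), at log2 fold changes of 0.66 to 0.73. Neither drug group nor combination passed the test against PBS. In 5-FU+ICB tumors Mcl1 was at 518, 226, 351, 367 and 472 CPM, with tumor 2 below every PBS tumor (0.49 ± 0.24, edgeR adjusted p = 0.107). Without that tumor the log2 fold change was 0.64 and passed (edgeR adjusted p = 0.0214). In cisplatin+ICB tumors it was at 428, 374, 274, 377 and 413 CPM, and 4 of the 5 were above the PBS range (0.44 ± 0.18, edgeR adjusted p = 0.145).

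Bcl2, the founding anti-apoptotic member, was at 21.9, 17.8, 29.5 and 29.0 CPM in the PBS tumors. The ICB tumors were at 41.4, 36.0, 31.5, 31.6 and 37.3 CPM, the 5-FU tumors at 39.8, 33.7, 55.1, 30.1 and 40.7 CPM, and the 5-FU+ICB tumors at 34.7, 36.1, 41.8, 37.2 and 41.7 CPM. All 15 of these tumors were above the highest PBS tumor. Bcl2 rose by 0.57 ± 0.17 with ICB, 0.72 ± 0.17 with 5-FU and 0.68 ± 0.17 with 5-FU+ICB (edgeR adjusted p = 0.0125, 0.00879 and 0.00479). The lowest PBS levels were those of tumors 1 and 2, where long transcripts were low, and the longest Bcl2 transcript has 7191 bases. When each tumor's trend with transcript length was removed the log2 fold changes were 0.22, 0.32 and 0.34, and none passed (edgeR adjusted p = 0.325, 0.198 and 0.128). The ICB call was also lost without PBS tumor 2 alone (0.46, adjusted p = 0.0493, under the fold threshold).

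Bcl2l1 and Bcl2l2 encode BCL-XL and BCL-W. Bcl2l1 was at 61.4, 70.8, 63.3 and 57.3 CPM in PBS tumors and at 80.1, 84.8, 85.6, 82.7 and 100 CPM in ICB tumors, with no overlap. Its log2 fold change of 0.47 ± 0.15 passed the p threshold (edgeR adjusted p = 0.0153) and not the fold threshold. It exceeded the fold threshold in 3 of the 9 fits that left out 1 tumor (PBS 2, ICB 1 or ICB 2, up to 0.56) and after the length correction (0.55, edgeR adjusted p = 0.00417). Bcl2l2 was between 19.7 and 53.7 CPM in the 28 tumors and passed the test in no comparison, with group means between 34.2 and 44.3 CPM.

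Bak1 encodes BAK, the only effector among the 10 genes. It was at 114, 112, 124 and 122 CPM in PBS tumors and at 148, 164, 171, 160 and 171 CPM in ICB tumors. These ranges did not overlap, and the log2 fold change of 0.49 ± 0.10 (edgeR adjusted p = 0.00195) fell just short of the fold threshold. The 5-FU+ICB tumors, at 167, 178, 174, 135 and 131 CPM, were also all above the PBS tumors (0.43 ± 0.10, edgeR adjusted p = 0.00399). In the 5-FU tumors Bak1 was at 119, 140, 125, 112 and 115 CPM and overlapped PBS and did not pass (0.06 ± 0.10). In the cisplatin+ICB tumors it was at 79.7, 136, 113, 153 and 147 CPM, on both sides of the PBS range, and did not pass (0.10 ± 0.16, edgeR adjusted p = 0.800). After the length correction Bak1 was past the fold threshold with ICB (0.58) and 5-FU+ICB (0.53, edgeR adjusted p = 0.00093 and 0.00151) and not with cisplatin+ICB (0.16, edgeR adjusted p = 0.678). DESeq2 called 7 of the 10 in ICB against PBS tumors, Bak1 and Bcl2l1 among them, beside 33.3% of the genes it tested.

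**Figure D2:**
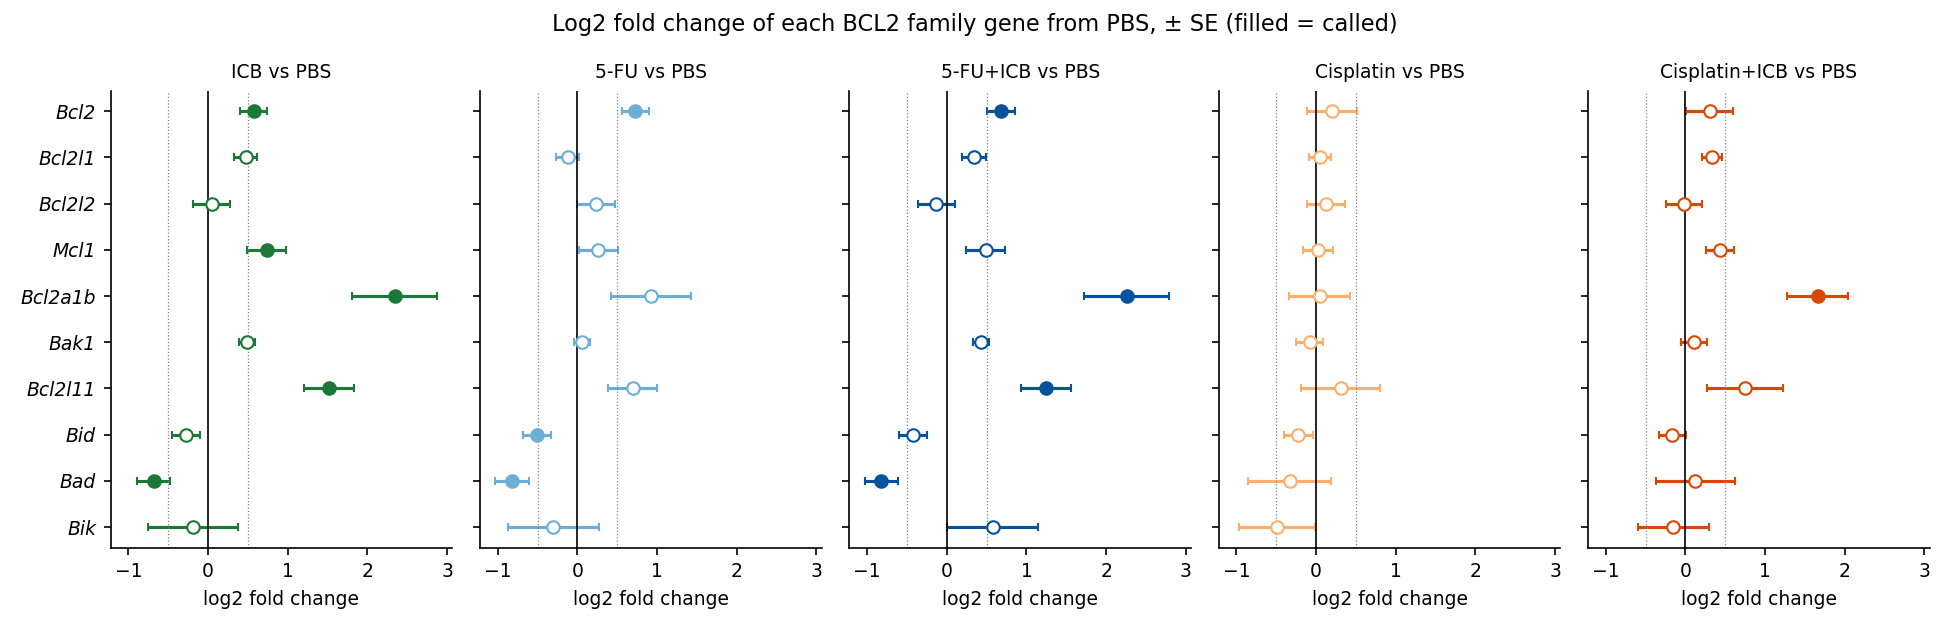
Log2 fold change from PBS (± SE) of the 10 genes in the 5 treated groups; filled points passed edgeR's test and the fold threshold of 0.5 (dotted lines). Bcl2a1b is filled in the 3 groups that received ICB, at 2.34, 2.26 and 1.66, and no gene is filled with cisplatin alone.

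Among the BH3-only genes Bcl2l11 moved furthest from PBS with ICB and with 5-FU+ICB. It encodes BIM, which binds all the anti-apoptotic proteins and removes lymphocytes after a response. It was at 23.1, 12.6, 35.7 and 37.6 CPM in the PBS tumors and at 60.7, 70.9, 101, 57.3 and 88.6 CPM in the ICB tumors. The groups did not overlap, and the log2 fold change was 1.52 ± 0.32 (edgeR adjusted p = 0.00167). The 5-FU+ICB tumors were at 93.4, 32.5, 67.7, 54.1 and 64.3 CPM, with tumor 2 in the PBS range, and Bcl2l11 rose by 1.25 ± 0.31 (edgeR adjusted p = 0.00494). It was called in 9 of 9 fits that left out 1 tumor in each of these contrasts, and after the length correction (1.38 and 1.13, edgeR adjusted p = 0.00224 and 0.00634). The 5-FU tumors were at 36.5, 34.4, 61.6, 33.5 and 49.2 CPM and overlapped PBS (0.70 ± 0.31, edgeR adjusted p = 0.0996). In cisplatin+ICB tumors it was at 6.37, 57.2, 41.7, 56.5 and 64.1 CPM. Of these, 4 were above the PBS tumors and tumor 1 was the lowest of all 28 (0.75 ± 0.48, edgeR adjusted p = 0.382). Without tumor 1 the log2 fold change was 1.12 and passed (edgeR adjusted p = 0.0103).

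Bad encodes a BH3-only protein that is silenced by phosphorylation when growth factors are present. It was at 41.9, 74.1, 31.3 and 33.3 CPM in the PBS tumors. In the ICB tumors it was at 28.7, 29.5, 27.5, 24.9 and 30.0 CPM, in the 5-FU tumors at 24.1, 27.8, 26.3, 26.4 and 24.8 CPM, and in the 5-FU+ICB tumors at 28.4, 27.8, 27.8, 19.9 and 24.7 CPM. All 15 were below the lowest PBS tumor. Bad fell by 0.68 ± 0.21, 0.82 ± 0.21 and 0.82 ± 0.21 on the log2 scale (edgeR adjusted p = 0.0148, 0.0120 and 0.00529). Each of these calls was lost without PBS tumor 2, where the log2 fold changes were -0.30, -0.43 and -0.43. The length correction gave -0.42, -0.53 and -0.58, and the last 2 still passed (edgeR adjusted p = 0.0373, 0.0234 and 0.00724). The longest Bad transcript has 1533 bases, and the 5 tumors with the lowest length index held the 5 highest Bad levels, from 37.5 CPM in cisplatin tumor 2 to 150 CPM in cisplatin+ICB tumor 1. Bad also shares 20.5% of its exon bases with Gpr137 on the other strand, and whether the counting used strand is not given in the sources used here. Also on the other strand, Bak1 shares up to 18.2% with Ggnbp1, Bid 17.7% with Bcl2l13 and Bcl2 6.09% with D630008O14Rik. Bcl2l2 shares 13.3% with Gm20521 on the same strand.

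Bid encodes the BH3-only protein that caspase-8 cuts to link death receptors to mitochondria. It was at 56.4, 56.3, 46.1 and 45.7 CPM in PBS tumors and at 36.2, 43.0, 35.0, 33.2 and 33.1 CPM in 5-FU tumors. The groups did not overlap, and Bid fell by 0.50 ± 0.18 (edgeR adjusted p = 0.0432). This call sat at both thresholds and held in 3 of the 9 fits that left out 1 tumor; it was lost without PBS 1 or 2 or without 5-FU 1, 3, 4 or 5. The length correction gave -0.37 (edgeR adjusted p = 0.116). Bik, which encodes a BH3-only protein of the endoplasmic reticulum, was at 0.122 to 1.90 CPM and passed in no comparison, with SEs of its log2 fold changes between 0.43 and 0.78.

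**Figure D3:**
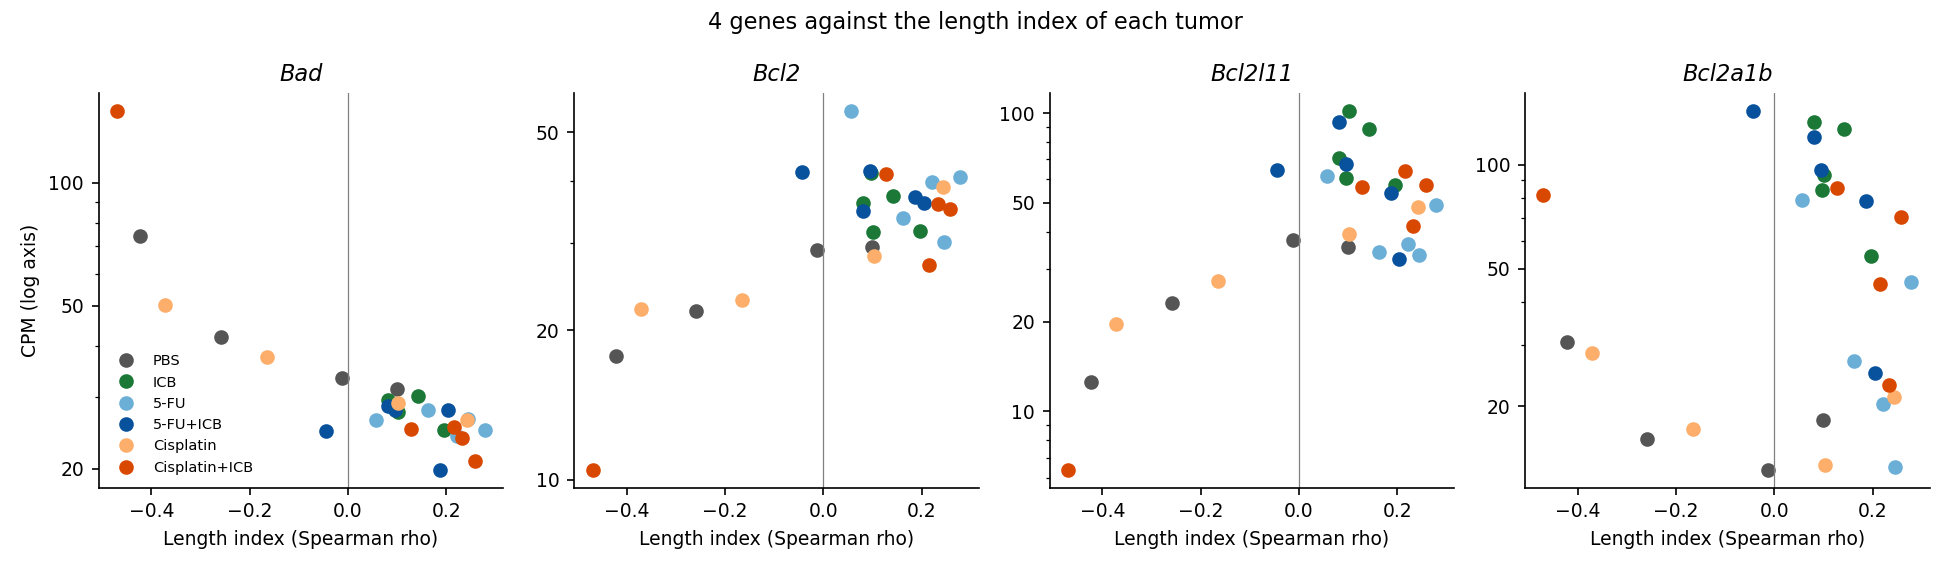
CPM (log axis) of Bad, Bcl2, Bcl2l11 and Bcl2a1b against the length index of each of the 28 tumors (x axis, Spearman rho), colored by group. Bad is highest and Bcl2l11 lowest in the tumors with the lowest index, cisplatin+ICB tumor 1 (-0.470) and PBS tumor 2 (-0.423), and no such order is seen for Bcl2a1b.

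PBS tumors 1 and 2 are 2 of the 4 controls, so each contrast with PBS was also fitted without both. Calls then fell across all genes, to 11.5% for ICB, 0.37% for 5-FU and 9.41% for 5-FU+ICB, against 37.8%, 23% and 40.6% with all tumors. With ICB, 3 of the 10 genes then passed, of which 2 were among the 5 called with all tumors. They were Bcl2a1b (2.74 ± 0.73, edgeR adjusted p = 0.0305), Bcl2l11 (1.13 ± 0.35, edgeR adjusted p = 0.0488) and Bcl2l1 (0.61 ± 0.18, edgeR adjusted p = 0.0401). Mcl1 lost its call at a larger log2 fold change than with all tumors (0.95 ± 0.31, edgeR adjusted p = 0.0562). With 5-FU+ICB, Bcl2a1b passed (2.65 ± 0.73, edgeR adjusted p = 0.0383) and Bcl2l11 did not (0.85 ± 0.35, adjusted p = 0.104). With 5-FU, the 3 genes called with all tumors no longer passed in edgeR: Bcl2 was at 0.52 ± 0.20 (adjusted p = 0.242), Bid at -0.28 ± 0.21 (adjusted p = 0.511) and Bad at -0.25 ± 0.12 (adjusted p = 0.343). After the length correction, 5 of the 10 genes were called with ICB, 4 with 5-FU+ICB and 1 with 5-FU. The shares of all genes called were 35.7%, 39.3% and 18.6%. Of the calls made before the correction, 3 of 5 for ICB, 3 of 4 for 5-FU+ICB and 1 of 3 for 5-FU remained.

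**Figure D4:**
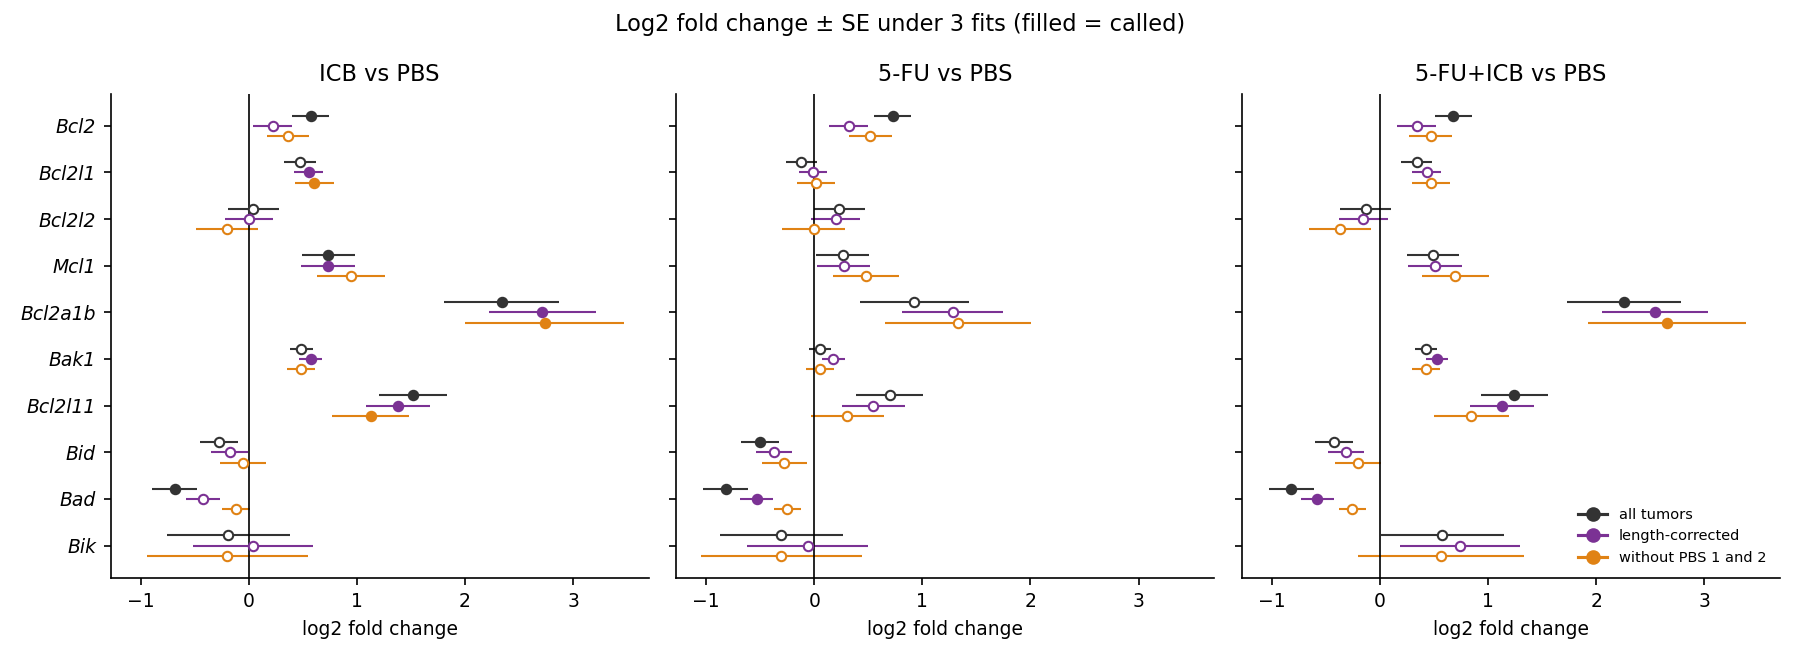
Log2 fold change from PBS (± SE) of the 10 genes for ICB, 5-FU and 5-FU+ICB under 3 fits: all tumors, each tumor's trend with transcript length removed, and without PBS tumors 1 and 2 (filled points passed both thresholds). Bcl2a1b is filled in all 3 fits for ICB (2.34, 2.72 and 2.74) and for 5-FU+ICB, whereas Bcl2 is filled only with all tumors.

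For 5-FU alone the question was what the drug did without antibodies. Bcl2 rose and Bid and Bad fell, 3 of 10 genes beside 23% of all genes tested. The median log2 fold change was 0.14 over the 10 genes and -0.01 over all. DESeq2 called 2 of the 10, beside 24.9% of the genes it tested. With 5-FU+ICB against PBS 4 of 10 were called, Bcl2, Bcl2a1b and Bcl2l11 higher and Bad lower, beside 40.6% of all genes, and the median was 0.46 against -0.04. For 3 of the 10 genes the 5-FU+ICB and PBS tumors did not overlap, as for 25.5% of all genes.

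With cisplatin alone none of the 10 genes passed edgeR's test against PBS (0% of the 17798 genes tested passed), none had an unadjusted p under 0.05 (1.78% of all genes), and DESeq2 called none (0.0114% of its genes), giving Bad no adjusted p in this matrix. The log2 fold changes lay between -0.49 ± 0.48 for Bik and 0.31 ± 0.50 for Bcl2l11. On simulated counts, edgeR recovered 54% of changes of 2 on the log2 scale in this contrast. With cisplatin+ICB, Bcl2a1b was the 1 gene of 10 called, beside 6.1% of all genes. That call was lost when PBS tumor 1, 3 or 4 or cisplatin+ICB tumor 2 or 4 was left out (edgeR adjusted p between 0.0554 and 0.0927, log2 fold changes no higher than 1.62). Without cisplatin+ICB tumor 1, 4 of the 10 passed, and the genes passing in all went from 1086 to 6270. The 4 were Bcl2a1b, Bcl2 (0.59), Bcl2l11 (1.12) and Bad (-0.88).

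The next comparisons asked what the combinations added to either part. Against ICB alone, none of the 10 genes was called by edgeR with 5-FU+ICB (0.229% of all genes) or with cisplatin+ICB (0% of all genes), and DESeq2 called none in either (1.68% and 0.261% of its genes). The unadjusted p was under 0.05 for none in the first contrast (10.9% of all genes) and for 1, Bak1, in the second (-0.37 ± 0.15, beside 15.9% of all genes). Bcl2a1b differed by -0.08 ± 0.46 between 5-FU+ICB and ICB and by -0.68 ± 0.34 between cisplatin+ICB and ICB. Against 5-FU alone, none was called with 5-FU+ICB by edgeR (0.0112% of all genes) or by DESeq2 (2.96% of its genes). Bcl2l1 (0.46 ± 0.14), Bcl2a1b (1.33 ± 0.47) and Bak1 (0.37 ± 0.10) had an unadjusted p under 0.05, as had 16.6% of all genes, and adjusted p of 0.154, 0.196 and 0.134. Bcl2a1b passed without 5-FU tumor 3 (1.82, edgeR adjusted p = 0.0453) or 5-FU+ICB tumor 2 (1.58, edgeR adjusted p = 0.0304), and Bcl2l1 without 5-FU tumor 3 (0.55, edgeR adjusted p = 0.0439). Against cisplatin alone, edgeR called none with cisplatin+ICB (0% of all genes), 3 had an unadjusted p under 0.05 (14.2% of all genes), and DESeq2 called 1, Bcl2a1b (4.2% of its genes). In edgeR Bcl2a1b was higher by 1.61 ± 0.38 (adjusted p = 0.0791), and it passed without cisplatin+ICB tumor 1 (1.54, edgeR adjusted p = 0.0249) or tumor 3 (1.82, edgeR adjusted p = 0.0130).

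Whether the effect of ICB differed with a drug on board was tested as an interaction. None of the 10 genes was called by edgeR for 5-FU (0.0894% of all genes) or for cisplatin (0%), nor by DESeq2 (9.56% and 0.00286% of its genes). For 5-FU the unadjusted p was under 0.05 for 3 genes, beside 23.9% of all, namely Bcl2 (-0.62 ± 0.23), Bcl2l11 (-0.97 ± 0.42) and Bad (0.68 ± 0.29), with adjusted p of 0.118, 0.168 and 0.158; for cisplatin it was under 0.05 for none (7.12% of all genes). Between the drugs, edgeR and DESeq2 called none of the 10 for 5-FU against cisplatin (0.362% of all genes in edgeR and 3.85% in DESeq2), and none had an unadjusted p under 0.05 (15.5% of all genes). Bcl2 differed by 0.51 ± 0.26 there (adjusted p = 0.352). For 5-FU+ICB against cisplatin+ICB both tools also called none (0.297% of all genes in edgeR and 8.9% in DESeq2), and 2 had an unadjusted p under 0.05 (25.7% of all genes), Bak1 (0.32 ± 0.14) and Bad (-0.93 ± 0.39). Cisplatin+ICB tumor 1 alone held the high Bad level, and without that tumor the Bad difference was 0.11.

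Another 28 genes of the same pathway were looked at as a list, of which 25 were tested. With ICB against PBS, 6 rose and 4 fell, 10 of 25 beside 37.8% of all genes, so this count was near the background. The largest changes were in Bcl2l14 (2.31 ± 0.76, called in 6 of 9 fits that left out 1 tumor), a BCL2-related gene, Pmaip1 (2.18 ± 0.49), which encodes the BH3-only protein NOXA that neutralizes MCL1 and A1, and the Bcl2a1d and Bcl2a1a copies given above. Both other effectors were lower, Bax by 0.68 ± 0.18 and Bok by 1.54 ± 0.28; they were picked out after their values had been seen. After the length correction Bok remained lower (-1.29) and Bax no longer passed (-0.37, edgeR adjusted p = 0.0892). With 5-FU, 2 rose and 9 fell, 11 of 25 beside 23% of all genes, and after the length correction 4 rose and 8 fell, beside 18.6%. Bnip3 (-2.22 ± 0.33) and Bnip3l (-1.01 ± 0.22), hypoxia-induced genes of mitochondrial clearance, and Bmf (-0.97 ± 0.35), a BH3-only gene, were lower, while Pmaip1 was higher (1.39 ± 0.48). The Bmf and Pmaip1 calls held in 3 of 9 fits that left out 1 tumor. With 5-FU+ICB 4 rose, among them Pmaip1 (2.52 ± 0.50), and 7 fell, among them Bnip3 (-1.63 ± 0.32), 11 of 25 beside 40.6% of all genes. With cisplatin+ICB 3 rose, beside 6.1% of all genes, namely Pmaip1 (1.77 ± 0.39), Bcl2a1d (1.61 ± 0.35) and Bcl2a1a (1.44 ± 0.35), called in 3, 4 and 4 of 9 fits that left out 1 tumor. With cisplatin alone edgeR called none of the 25. Bnip3 was lower in 5-FU+ICB than in ICB tumors (-1.57 ± 0.31, edgeR adjusted p = 0.0415) and in 5-FU+ICB than in cisplatin+ICB tumors (-3.05 ± 0.64, edgeR adjusted p = 0.0348), and Bbc3, which encodes the BH3-only protein PUMA, was lower in 5-FU than in cisplatin tumors (-0.96 ± 0.21, edgeR adjusted p = 0.0455). These 3 calls held in 2 of 10, 6 of 10 and 1 of 9 fits that left out 1 tumor. Without 5-FU+ICB tumor 5 neither Bnip3 call held (edgeR adjusted p = 0.0902 and 0.143), and without cisplatin+ICB tumor 1 the Bnip3 difference between the combinations was -1.10 (edgeR adjusted p = 0.125).

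Markers of immune cells, of fibroblasts and of the mesothelial tumor line differed between the same groups. With ICB against PBS, 5 of 6 leukocyte, 6 of 6 T cell, 6 of 6 macrophage and 2 of 5 tested neutrophil genes were called higher, and none of 4 B cell or 6 fibroblast genes. With 5-FU, where Bcl2 rose and Bid and Bad fell, 4 of 6 fibroblast, 4 of 6 T cell, 2 of 6 macrophage, 1 of 6 leukocyte and 1 of 5 neutrophil genes were higher, and no B cell gene. The summed level of the 6 fibroblast genes was 1606 to 5090 CPM in PBS and 5197 to 9395 CPM in 5-FU tumors, without overlap. With 5-FU+ICB, 6 of 6 leukocyte, 6 of 6 T cell, 4 of 6 macrophage, 3 of 4 B cell, 2 of 6 fibroblast and 1 of 5 neutrophil genes were higher. The summed level of the 4 B cell genes was 771 CPM in 5-FU+ICB tumor 5. It was 13.4 to 30.0 CPM in the other tumors of that group and 13.6 to 17.3 CPM in PBS tumors. With cisplatin+ICB, where Bcl2a1b rose, 5 of 6 T cell, 4 of 5 neutrophil, 2 of 6 leukocyte and 1 of 6 macrophage genes were higher, and no B cell or fibroblast gene. No skeletal muscle gene was called in these contrasts, though the sum of the 6 tested varied widely between tumors. It was 101 to 169 CPM in PBS, 1.62 to 3241 in ICB, 7.96 to 1326 in 5-FU and 2.36 to 4494 in 5-FU+ICB tumors. The summed level of the 6 mesothelial genes, of which Msln was the most abundant in PBS tumors, was 273 to 362 CPM in PBS, 54.7 to 218 in ICB, 46.9 to 178 in 5-FU and 37.9 to 169 in 5-FU+ICB tumors, so that each of these treated groups lay below PBS without overlap. It was 216 to 310 CPM in cisplatin and 133 to 666 in cisplatin+ICB tumors, which overlapped PBS. Of single genes, Msln passed the test in 5-FU+ICB (-2.28 ± 0.77, edgeR adjusted p = 0.0238) and not in ICB (-1.51 ± 0.76, edgeR adjusted p = 0.117) or 5-FU tumors (-1.54 ± 0.76, edgeR adjusted p = 0.136), and the sparse Wt1 rose in all 3. The list as a whole did not fall with its sum. Of its 4 tested genes 1 was higher and none lower with ICB and with 5-FU (median log2 fold changes 0.09 and -0.33), and with 5-FU+ICB Wt1 and Krt19 were higher and Msln lower (median 2.65), Krt19 being at 49.0 CPM in tumor 5 and at or below 1.86 CPM in the other tumors. The part of these cell types in the changes of the 10 genes was not tested. The summed level of the 6 leukocyte genes was 541 to 679 CPM in PBS, 1319 to 3214 in ICB, 606 to 2230 in 5-FU, 561 to 857 in cisplatin, 703 to 4689 in 5-FU+ICB and 813 to 2016 in cisplatin+ICB tumors. The lowest 5-FU+ICB tumor was tumor 2, which also had the lowest Bcl2a1b, Mcl1 and Bcl2l11 of its group, and the lowest cisplatin+ICB tumor was tumor 3. In whole tumors, more cells of a type and more RNA per cell cannot be told apart. As a description, the log2 ratio of Bcl2a1b to Ptprc, the gene of the pan-leukocyte protein CD45, was -2.31 ± 0.49 (SD) in PBS and -1.93 ± 0.28 in ICB tumors, and the ranges overlapped (-2.88 to -1.78 and -2.25 to -1.67). The ratio of Bcl2l11 to Ptprc was -1.88 ± 0.89 in PBS and -2.27 ± 0.20 in ICB tumors and also overlapped. That of Mcl1 went from 1.59 ± 0.17 to 0.35 ± 0.15 without overlap, Mcl1 having risen less than Ptprc.

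**Figure D5:**
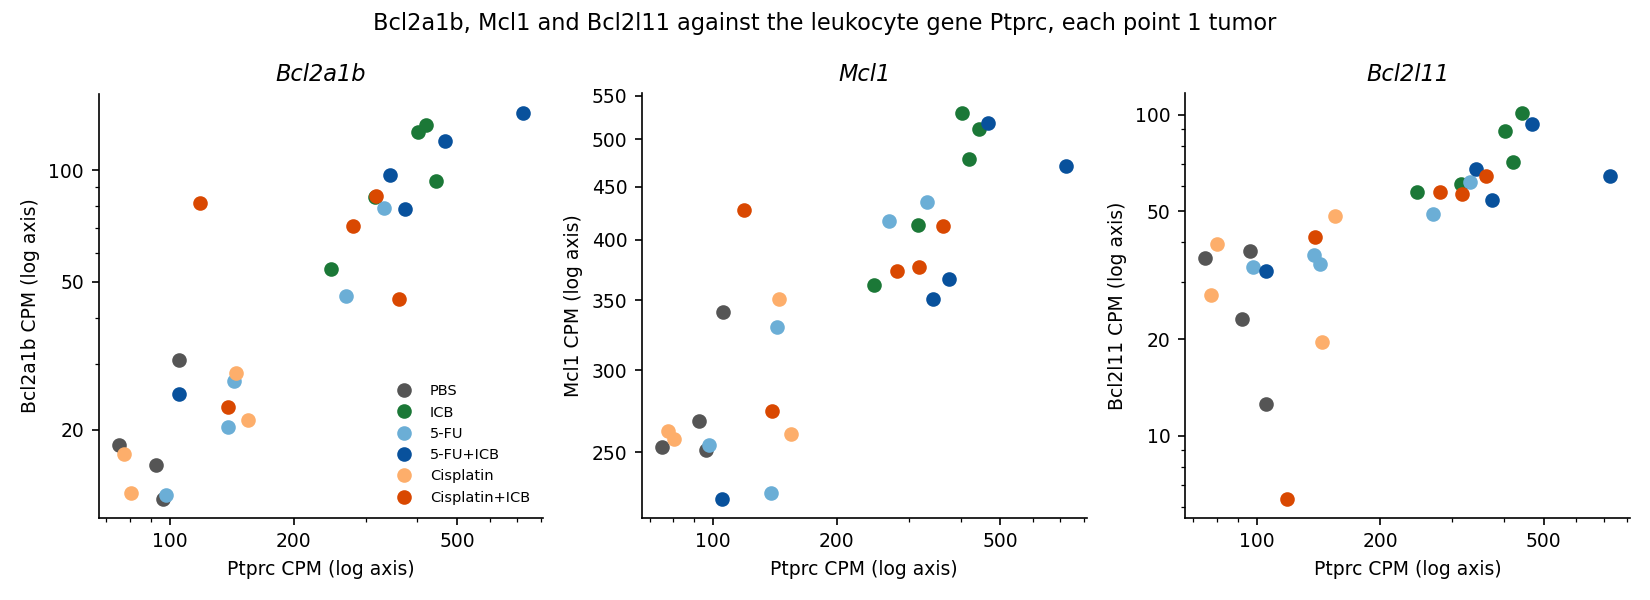
CPM of Bcl2a1b, Mcl1 and Bcl2l11 against CPM of the leukocyte gene Ptprc in the 28 tumors, colored by group (both axes logarithmic). ICB tumors lie at the upper right and PBS tumors at the lower left for Bcl2a1b, and the exception at the upper left is cisplatin+ICB tumor 1, with 81.5 CPM of Bcl2a1b at 119 CPM of Ptprc.

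The genes whose levels followed each member most closely were ranked by Spearman's rho over the 28 tumors among 14382 candidates, as a description, since the tumors share their groups and their length index. Bcl2a1b was followed by its copies Bcl2a1d (0.975) and Bcl2a1a (0.973) and by Cd40 (0.968), a receptor of antigen-presenting cells. The counts of these copies cannot be fully separated, as given above, so their rho values do not come from independent measurements. Bcl2l11 was followed by Arap1 (0.976), Tnfrsf1b (0.971), which encodes a TNF receptor, and Gm45606 (0.970). Bak1 was followed by Chmp4b (0.904) and the interferon-induced Irgm1 (0.901), and Mcl1 by Selenbp1 (0.943), St8sia4 (0.941) and Gm36161 (0.933). Bad was followed by Nrbp1 (0.966), Tpd52l2 (0.928) and Ube2a (0.915). For Bcl2l2 the closest were Fam208b (0.961), Kif21a and Pnn (0.947 each), and for Bid Slc25a43 (0.922), Psat1 and Rfc3 (0.898 each). The likeness was lower for Bcl2l1 with Sdc4 (0.865), Atp6v0e2 (0.860) and Psme1 (0.850), for Bcl2 with Ermap (0.845), Zfp691 (0.816) and Enpp2 (0.805), and for Bik with Gpr183 (0.735), AC124502.3 and Cracr2b (0.720 each).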

How the data were processed

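RNA from 28 whole tumors was sequenced for the authors by a genome facility as 100-base single-end reads. The reads were mapped to GRCm38/mm10 transcripts with kallisto 0.46.0 and summarised to genes with tximport, and the authors deposited the resulting estimated counts, not normalized, in 2 matrices with 9 PBS and ICB tumors in common. bcl2fastq 2.20.0.422 is also named in the submitters' processing notes. The annotation release and any use of strand are not given in the sources used here. The shared tumors held identical values and were counted once. Of the values 23.7% were not whole and were rounded. In each matrix 26 rows whose names had turned into dates, at most 0.214% of a tumor's counts, were left out, and 55315 of the names were found in GENCODE M21, which gave positions and lengths. The number of tumors and of counts limits precision. On the TMM-scaled CPM scale, 3 counts correspond to 0.0823 to 0.159 CPM.

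edgeR 4.0.16 was used in R 4.3.3 with its own filter, TMM scaling and the quasi-likelihood test. The PBS, ICB, 5-FU and 5-FU+ICB tumors (17894 genes), the PBS, ICB, cisplatin and cisplatin+ICB tumors (17798 genes), or all 28 (18499 genes, for drug against drug) shared a fit, with Benjamini-Hochberg adjustment over all genes and 13 contrasts. SE was taken as the log2 fold change over the root of F. The procedure was tested on simulated counts in which 200 genes were changed by 2 on the log2 scale. It recovered 74.5% of them for ICB against PBS and 54% for cisplatin against PBS. Of its calls, 6.29% and 1.82% were false. With no gene changed it called 0 genes in either contrast. Levels are TMM-scaled CPM over all 28 tumors. The length correction used a lowess curve of each tumor's deviations on the log of transcript length as an offset. It, the fits without PBS tumors 1 and 2 together or without 5-FU+ICB tumor 5 and cisplatin+ICB tumor 1 together, and leaving out each tumor for the other pathway genes were chosen after seeing the data. The other alternatives were DESeq2, its size factors, other filters and thresholds, smaller or joined fits, the replicate number as a block and leaving out each tumor. The 10 genes and all lists were chosen with earlier results of these data known. All 10 genes were named, with up to 4 called genes of largest change from the other lists and the 3 most similar genes of each member among those with a mean of at least 1 CPM; 1 item is not reported here. The design text gives 5 cisplatin tumors, whereas the sample labels and the count matrix hold 4, all of which were used.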

Additional observations from a re-analysis of the deposited data

Results flagged for a closer look

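In 5 of 60 sets of values (10 genes in 6 groups) the highest tumor lay so far from the rest of its group that Dixon's 95% limit was passed, which chance alone does in about 1 in 20 sets. Cisplatin+ICB tumor 1 gave 3 of the 5. In that tumor Bad was at 149.53 CPM, with the next tumor of the group at 25.3, Bid at 62.554 CPM, with the next at 43.3, and Bik at 1.2213 CPM, with the next at 0.502. The same tumor had the lowest length index of the 28 (-0.470) and the lowest Bcl2 and Bcl2l11, and the part of the length index in these levels was not tested. Cisplatin tumor 4 had the highest Mcl1 of its group, 351.24 CPM against 262 in the next tumor, and a length index of -0.372. ICB tumor 5 had the highest Bcl2l1 of its group, 100.33 CPM against 85.6 in the next.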

How the results depend on the processing

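All log2 fold changes of the called genes among the 10 kept their sign under every alternative run. The number of the 10 genes called with ICB against PBS went from 5 to 3 when all 6 groups were fitted together, with the cisplatin matrix, or without PBS tumors 1 and 2, where the share of all genes called went from 37.8% to 28%, 26.2% and 11.5%. The number rose to 7 with DESeq2 (all genes 33.3%), its size factors (36.9%), no filter on low counts (16.1%) or no fold threshold (41.9%). It also rose to 7 with at least 10 counts in every tumor (41.3%) and to 6 with only the groups compared (40.4%). With 5-FU against PBS it went from 3 to 1 with only the groups compared or the length correction, and to 0 in the joined fit or without PBS tumors 1 and 2, as the share of all genes went from 23% to 23.3%, 18.6%, 4.45% and 0.37%. At an unadjusted p it rose to 4 (all genes 33%). With 5-FU+ICB against PBS it went from 4 to 2 in the joined fit and to 1 without those tumors (all genes 40.6% to 31.4% and 9.41%). There it rose to 5 with no filter on low counts (all genes 17.9%), at least 10 counts in every tumor (41.5%) or no fold threshold (45.4%). With cisplatin+ICB against PBS it went from 1 to 0 with only the groups compared, in the joined fit, or without those tumors (all genes 6.1% to 0%, 4.35% and 0%). At an unadjusted p, 1 gene was called for 5-FU+ICB against 5-FU, 1 for cisplatin+ICB against cisplatin (also 1 in DESeq2), 1 for 5-FU+ICB against cisplatin+ICB and 3 for the 5-FU interaction, each past the fold threshold, in place of 0 (all genes 13.4%, 11.9%, 22.7% and 21.5%). The cause of these changes was not tested. Leaving out 1 tumor gave 4 to 7 genes for ICB against PBS (all genes 28.4% to 39.8%). Against PBS it gave 1 to 3 for 5-FU (7.87% to 25.9%) and 3 to 6 for 5-FU+ICB (30.6% to 48.8%). For cisplatin+ICB against PBS it gave 0 to 4 (0% to 35.3%). It gave 0 to 2 for 5-FU+ICB against 5-FU (0% to 10.9%) and 0 to 1 for cisplatin+ICB against cisplatin (0% to 11.9%). Elsewhere it gave 0 of the 10 genes (all genes 0% to 11.4%). The replicate number as a block gave 5, 2 and 4 genes for ICB, 5-FU and 5-FU+ICB against PBS and 0 for cisplatin+ICB (all genes 33.7%, 18.6%, 35.8% and 0.534%), where Bcl2a1b was at 1.61 (edgeR adjusted p = 0.0703); Mcl1 with ICB (0.65, edgeR adjusted p = 0.0527) and Bid with 5-FU (-0.46, edgeR adjusted p = 0.0702) were also lost. Same-numbered tumors did not deviate together on average, with a mean correlation of 0.02 and -0.05 in the 2 matrices. Single pairs ran from -0.47 to 0.678 and from -0.656 to 0.494. Of the tumors, 2 of 19 and 5 of 18 were closest to their own number. No pairing by number was thus seen on average, which cannot exclude a link between some tumors. Scaling by DESeq2's size factors moved none of the 60 group levels by more than 1 SD. Of the 10 genes Bik had the fewest counts, 4 to 38 a tumor, which limits its precision.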
